A study of Homo sapiens with 21 samples.

Results

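U937 is a human line with monocytic features derived from a histiocytic lymphoma, and the response described here is the set of genes that moved in the same direction with each of 2 hairpins against the tyrosine kinase SYK. Values on 7 of the 21 arrays of the series were compared: 2 of U937 cells carrying shSYK_1, 2 of U937 cells carrying shSYK_2 and 3 of U937 cells carrying shLuc, a hairpin against luciferase. The change was taken as the mean of both SYK hairpin group means minus the shLuc mean on the log2 scale, and a gene was kept when the sign was the same with each hairpin. By that rule 7075 of 12165 genes (58.2%) were members, 3558 of them higher and 3517 lower. In 4089 of the members the smaller of both changes was under 0.1 log2, so the sign alone is a weak criterion and most of what follows rests on the genes that also passed a test.

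All 3 lines of the series (U937, MOLM-14 and HL-60, the last being human myeloid leukemia lines as well) were transduced with the same hairpins, in duplicate for each SYK hairpin and in triplicate for shLuc per the labels. All arms, the shLuc arm included, were selected in 1 µg/ml puromycin starting 48 h after infection, and RNA was taken on day 5, so the values describe a selected population at a single time. Protein and phosphorylation were not measured on these arrays. RNA was labelled and hybridised to Affymetrix HT U133A arrays, on which each gene is read by 1 or more probe sets, and the values below are intensities on the linear scale unless log2 is named. A gene was called when its limma adjusted p (Benjamini-Hochberg over the 12165 genes, two-sided) was under 0.05. Both hairpins were set against the same 3 shLuc arrays, so an error in those arrays moves both changes one way. RNA was taken from whole cultures, so fewer cells of a kind and less RNA per cell cannot be told apart.

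SYK is a cytoplasmic tyrosine kinase whose paired SH2 domains bind phosphorylated immunoreceptor tyrosine-based activation motifs (ITAMs) in the tails of receptors or of adaptors such as FCER1G and TYROBP. In monocytes and macrophages it carries signals from Fc receptors, integrins and several lectins towards phagocytosis, the oxidative burst and cytokine release. In acute myeloid leukemia it has been studied as a kinase that acts with FLT3 and MYC. Differentiation along the monocyte lineage brings up Fc receptors, integrins, scavenger receptors and lysosomal enzymes, and goes with exit from the cell cycle.

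The target sequences of both SYK hairpins are shown because the whole comparison rests on their being separate reagents against 1 transcript. Capitals mark the 4 bases that both share at the 5′ end, and 10 of the 21 positions hold the same base in both.
shSYK_1: GCAGcagaacagacatgtcaa
shSYK_2: GCAGgccatcatcagtcagaa
SYK, the gene both are directed at, is on chromosome 9, and their GC contents are 47.6% for shSYK_1 and 52.4% for shSYK_2.

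SYK itself fell with each hairpin. Its intensity was 130 and 126 on the shSYK_1 arrays and 94.7 and 93.5 on the shSYK_2 arrays, against 404, 415 and 415 on the shLuc arrays. The groups did not overlap, and the mean change was -1.91 log2 (SE 0.0683, limma adjusted p = 2.87e-11). The level left was 22.9% of shLuc with shSYK_2 and 31.1% with shSYK_1. The difference between hairpins was itself past the threshold (shSYK_2 minus shSYK_1 -0.44 log2, adjusted p = 0.00147). A second SYK probe set gave -1.88 log2.

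Over all genes 820 concordant genes were called higher (6.74% of the genes tested) and 719 called lower (5.91%). A stricter set was called for the mean and for each hairpin taken alone: 310 genes higher (2.55%) and 175 lower (1.44%). The median change of the 310 was 0.53 log2, and that of the 175 was -0.45 log2. Only 17 of the 310 and 5 of the 175 changed by over 1 log2 with each hairpin. Within this set 85 of the 310 (27.4%) and 45 of the 175 (25.7%) were also called for shSYK_2 minus shSYK_1, shares near that over all genes tested (2797 genes, 23.0%). The rise was larger with shSYK_2 for 129 of the 310 and larger with shSYK_1 for 181. The strict set was 485 genes in all, and it held 317 genes without shSYK_2 replicate 1 and 297 without shSYK_2 replicate 2.

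**Figure D1:**
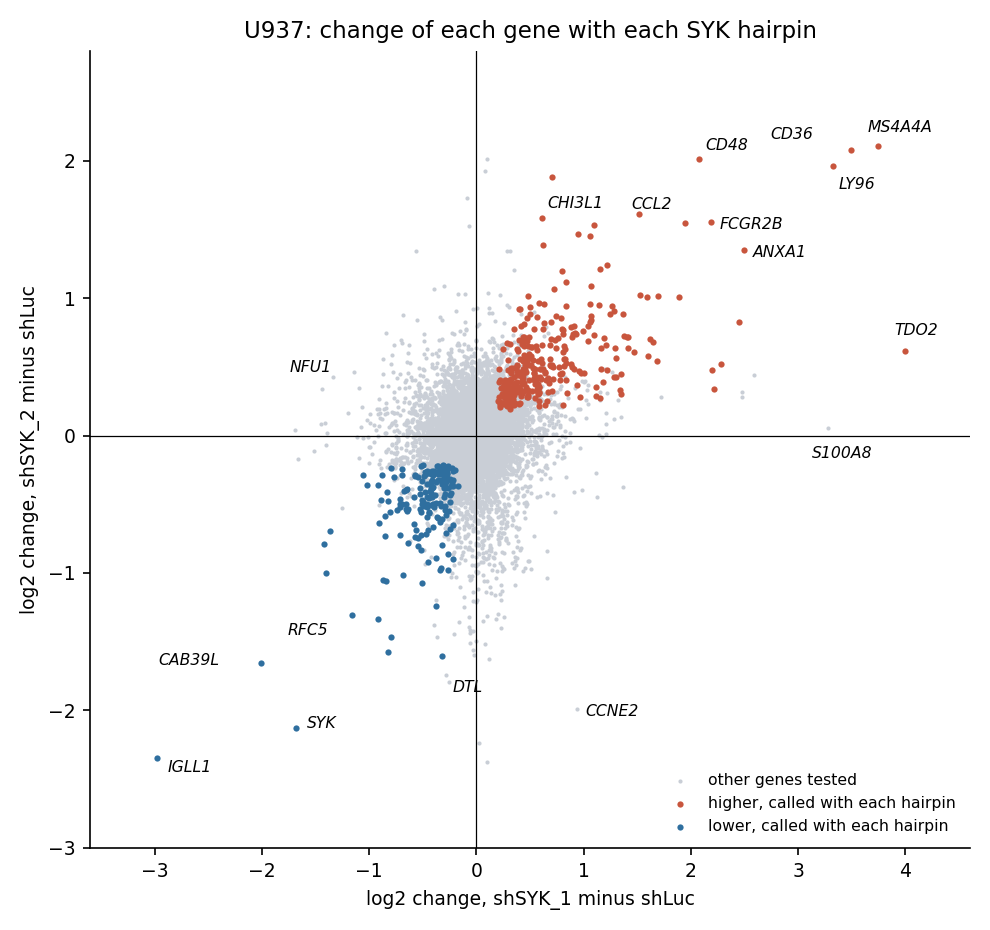
Each point is 1 of the 12165 genes in U937, with its log2 change with shSYK_1 on the horizontal axis and with shSYK_2 on the vertical axis, both minus shLuc. The 310 genes called higher with each hairpin (red) lie in the upper right and the 175 called lower (blue) in the lower left, while S100A8 and CCNE2, labelled in grey, changed with 1 hairpin or in opposite directions.

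The largest concordant rises were in surface proteins of monocytes and macrophages. MS4A4A, a membrane protein of macrophages, had an intensity of 110 and 128 with shSYK_1 and of 38.1 and 38.4 with shSYK_2, against 8.69, 6.53 and 12.3 with shLuc. CD36, the scavenger receptor for oxidised lipids, reached 170 and 128 with shSYK_1 and 52.6 and 58.4 with shSYK_2, against 15, 15.2 and 9.95 with shLuc. LY96, the co-receptor through which TLR4 binds lipopolysaccharide, was at 106 and 92.6 with shSYK_1 and at 37.8 and 39.7 with shSYK_2, against 11.9, 10.0 and 8.2 with shLuc. In these 3 genes every SYK hairpin array was above every shLuc array, and the shSYK_1 arrays were above the shSYK_2 arrays. Their mean changes were 2.93 log2 for MS4A4A (SE 0.166, adjusted p = 5.98e-09), 2.78 for CD36 (SE 0.141, adjusted p = 2e-09) and 2.64 for LY96 (SE 0.159, adjusted p = 9.61e-09). The shLuc values lie near the lower end of the array's scale, where a fold change is compressed.

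CD48, a signalling lymphocyte activation family protein that binds CD244, changed by about the same amount with each hairpin and from a well measured level. Its intensity was 490 and 417 with shSYK_1 and 417 and 453 with shSYK_2, against 103, 112 and 107 with shLuc, a change of 2.04 log2 (SE 0.0679, adjusted p = 1.75e-11). The groups were far apart, and the hairpins differed by -0.06 log2 (adjusted p = 0.739). BCL2A1, an anti-apoptotic BCL2 relative, was likewise even across hairpins, at 1098 and 1216 with shSYK_1 and 1205 and 1211 with shSYK_2, against 521, 521 and 522 with shLuc (1.18 log2, SE 0.0733, adjusted p = 1.31e-08). ANXA1, an annexin with anti-inflammatory roles, rose more with shSYK_1: 567 and 523 with shSYK_1 and 221 and 276 with shSYK_2, against 91.8, 95.2 and 104 with shLuc (1.92 log2, SE 0.0864, adjusted p = 6.72e-10). EVI2A and EVI2B, neighbours that lie inside an intron of NF1, rose by 1.31 and 1.23 log2. The vault protein MVP (1.08 log2), the amino acid transporter subunit SLC7A7 (1.27) and the bile acid binding protein FABP6 (1.35) complete the 15 genes with the largest smaller-hairpin rise, with FCGR2B, CCL2, CHI3L1 and C5AR1, which are described with their groups.

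The largest concordant fall belonged to IGLL1, a surrogate light chain of the pre-B-cell receptor. Its intensity was 10.2 and 8.5 with shSYK_1 and 14.8 and 14.0 with shSYK_2, against 96.7, 54.3 and 75.2 with shLuc. All SYK hairpin arrays were near the floor of the array, and the change was -2.66 log2 (SE 0.245, adjusted p = 1.58e-06). IGLL1 shares sequence with immunoglobulin light chain genes, so its probe set may read more than 1 transcript. CAB39L, a scaffold related to the CAB39 partner of the kinase STK11, had 19.2 and 19.4 with shSYK_1 and 25.1 and 24.4 with shSYK_2, against 87.4, 74.3 and 72.7 with shLuc (-1.83 log2, SE 0.134, adjusted p = 8.86e-08). No SYK hairpin array reached the shLuc values in either gene.

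Of the other named falls, PLAC8, a small cysteine-rich protein, was at 132 and 140 with shSYK_1 and 192 and 169 with shSYK_2, against 363, 353 and 364 with shLuc (-1.20 log2, SE 0.0721, adjusted p = 9.61e-09). ID1, which blocks basic helix-loop-helix factors, fell by 1.13 log2, and its change with shSYK_1 lost its call without shSYK_1 replicate 1 (-0.85, adjusted p = 0.06). CTNNAL1, a relative of alpha-catenin, fell by 1.20 log2. The nucleoside transporter SLC29A1 fell by 0.72, the potassium channel KCNA3 by 0.96, the homeobox factor CUX2 by 1.03 and the G protein subunit GNB1 by 0.79. For MYH10 (a non-muscle myosin), DNAJC6 (auxilin, which uncoats clathrin vesicles) and the neuropeptide GAL the named probe set fell by 0.95, 1.10 and 0.85 log2, while a second probe set of each gave -0.16, -0.05 and -0.01. GNB1 had 2 other probe sets, of which 1 gave -0.55 (adjusted p = 4.82e-05) and 1 gave -0.11 (adjusted p = 0.316).

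**Figure D2:**
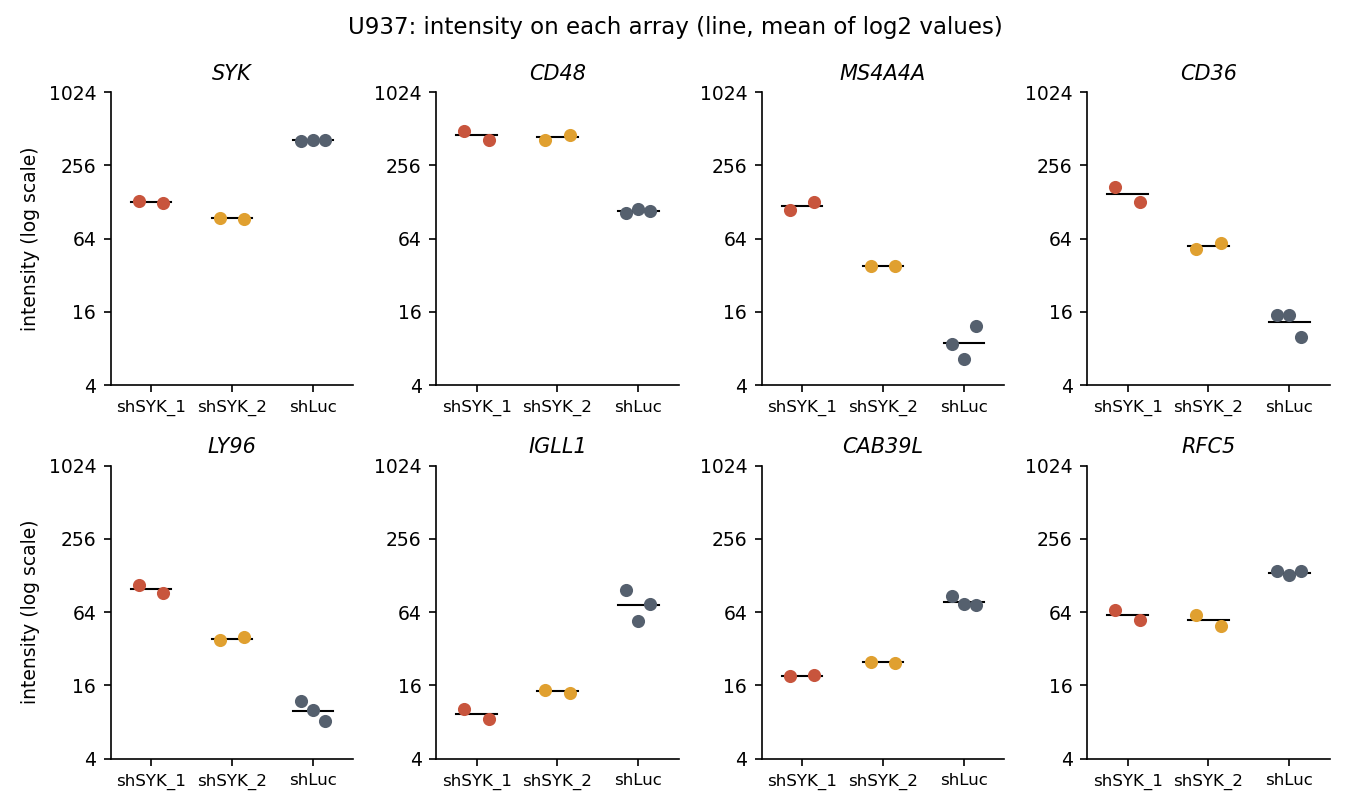
Intensity on each U937 array (vertical axis, log scale) for 8 genes, with a dot per array and a line at the mean of the log2 values of shSYK_1 (2 arrays), shSYK_2 (2 arrays) and shLuc (3 arrays). SYK, IGLL1, CAB39L and RFC5 are lower on all 4 SYK hairpin arrays than on the shLuc arrays, and CD48, MS4A4A, CD36 and LY96 are higher on all 4.

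Among receptors that signal through SYK, Fc receptors and ITAM adaptors were higher while SYK was lower. Of 16 measured members, 9 were called higher with the same sign for both hairpins and none lower, 8 of the 9 with each hairpin alone. The shares over all genes were 6.74% higher with the same sign and 2.55% higher with each hairpin. The list's median change was 0.64 log2, against -0.003 for all genes. FCER1G, the ITAM-bearing common gamma chain, was at 961 and 953 with shSYK_1 and 593 and 590 with shSYK_2, against 348, 369 and 364 with shLuc (1.06 log2, adjusted p = 7.85e-09). TYROBP, the other ITAM adaptor of myeloid cells, was at 305 and 292 with shSYK_1 and 255 and 269 with shSYK_2, against 141, 140 and 126 with shLuc (1.04 log2, adjusted p = 1.88e-08). Neither adaptor's groups overlapped.

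Of the Fc receptors, the activating high-affinity receptor FCGR1A rose more with shSYK_2, at 294 and 303 with shSYK_1 and 385 and 375 with shSYK_2, against 176, 184 and 183 with shLuc (0.90 log2, adjusted p = 7.65e-09), although a second, dimmer FCGR1A probe set gave 0.13. FCGR2B, the inhibitory receptor, was at 148 and 146 with shSYK_1 and 94.0 and 95.4 with shSYK_2, against 34.1, 28.8 and 34.4 with shLuc (1.87 log2, adjusted p = 3.01e-09). Its sequence is close to that of FCGR2A, which rose by 0.58, and the probe sets may not separate them. TREM1 and CLEC5A, which signal through TYROBP, rose by 0.91 and 0.73, and LILRA2, a receptor that pairs with FCER1G, by 0.79.

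The kinases and adaptors downstream of these receptors moved in both directions. Of 28 measured members of the SYK kinase pathway 6 were called higher and 3 lower, SYK among the 3, with a median of 0.06 log2. The shares of all genes called with the same sign were 6.74% higher and 5.91% lower. The Src family kinase FGR rose by 0.56 and LYN by 0.37, protein kinase C beta (PRKCB) rose by 0.34, and CSK, which restrains Src kinases, rose by 0.31. The adaptor LAT2 fell by 0.41. The count of 6 was 3 without shLuc replicate 3 and 3 without shSYK_2 replicate 2. With shSYK_1 alone 5 of the 28 pathway members were called higher and 6 lower, and with shSYK_2 alone 10 higher and 2 lower. Over all 12165 genes the counts were 1038 higher and 1018 lower with shSYK_1, and 1012 higher and 964 lower with shSYK_2. In shSYK_2 minus shSYK_1, 5 of the 28 were called higher and 3 lower, and 1443 and 1354 of all genes. Of 16 members of the receptor tyrosine kinase and STAT5 list, 3 were called higher and 1 lower. FLT3 was close to the floor (16.1, 16.7, 18.7 and 19.7 on the SYK hairpin arrays, against 21, 17.9 and 29.7 with shLuc), its groups overlapped, and its change of -0.33 log2 was not called (adjusted p = 0.0796), but it was called without shLuc replicate 2 (-0.49, adjusted p = 0.00963). PIM2 changed by -0.40, BCL2L1 by 0.51, PIM1 by 0.50 and STAT3 by 0.22, each called, and the count of 3 higher was 1 without shLuc replicate 1, shSYK_1 replicate 1, shSYK_2 replicate 1 or shSYK_2 replicate 2. In the list of ERK feedback and immediate early genes 1 of 23 was called higher (DUSP6, 0.30) and 3 lower (SPRY4, DUSP2 and IER2, between -0.35 and -0.24), and the count of 3 was 0 or 1 without 1 of 6 of the 7 arrays, shLuc replicate 3 being the exception.

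Among monocyte and macrophage genes more rose than fell. Of 32 measured, 17 were called higher and 1 lower, 13 and 1 of them with each hairpin alone, with a median of 0.34 log2. The shares of all genes were 6.74% higher and 5.91% lower with the same sign, and 2.55% and 1.44% with each hairpin. Besides CD36 and LY96, the beta-2 integrin chain ITGB2 was even across hairpins, at 1594 and 1679 with shSYK_1 and 1533 and 1634 with shSYK_2, against 1124, 1047 and 1056 with shLuc (0.58 log2, adjusted p = 1.24e-06). Its partner ITGAM was carried largely by shSYK_1, at 181 and 194 with shSYK_1 and 48.5 and 54.1 with shSYK_2, against 40.8, 48.9 and 33.3 with shLuc, and the shSYK_2 and shLuc ranges overlapped (1.28 log2, adjusted p = 8.19e-08). A second, dimmer ITGAM probe set gave -0.04. ITGAX rose by 0.69, the lysosomal glycoprotein CD68 by 0.68 and the protease CTSS by 0.79. The costimulator CD86 rose by 1.40, mainly with shSYK_1, and the transcription factor KLF4 by 0.46. S100A8 and S100A9, the subunits of calprotectin, were called at 1.67 and 1.40 log2, and S100A8 changed by 0.05 with shSYK_2 but by 3.28 with shSYK_1. A second S100A8 probe set gave -0.21. IRF8, a transcription factor of monocyte and dendritic cell fate, was the 1 that fell (-0.53, adjusted p = 3.66e-06).

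Defining markers of the monocyte and of other cell types were set side by side. CD14 stayed near the floor, at a mean of 7.44 with shSYK_1 and 6.54 with shSYK_2, against 6.74 with shLuc. CSF1R was also dim and not called (0.16 log2, adjusted p = 0.573), and CD4 was not called (-0.23, adjusted p = 0.0868). The summed intensity of 7 measured monocyte markers of 9 listed was 550.7 to 621.3 on the SYK hairpin arrays, against 316.7 to 344.1 on the shLuc arrays, with CD68, ITGAM, CD86 and FCGR1A called. With shSYK_2 the rise of the sum lay mainly in FCGR1A, at a mean of 380, against 181 with shLuc. With shSYK_1 the rise was largest in ITGAM (188, against 51.3 with shSYK_2 and 41.0 with shLuc), followed by FCGR1A (299). Marker sums of other cell types were low in both arms: 88.2 to 97.7 against 85.9 to 92.3 for erythroid, 46.8 to 51.1 against 48.7 to 48.8 for megakaryocyte, 79.2 to 91.8 against 73.6 to 78.1 for T and NK, 51.0 to 54.8 against 53.2 to 57.9 for B, and 77.4 to 83.0 against 77.6 to 92.9 for epithelial and stromal markers. In those 5 lists only CD2 (0.56) and NCAM1 (0.30) were called, both dim. Of the called monocyte markers, CD68 and CD86 were dim as well. CD68 had means of 15.1 with shSYK_1 and 12.1 with shSYK_2, against 8.42 with shLuc. CD86 was at 37.4 with shSYK_1 and 11.1 with shSYK_2, against 7.7 with shLuc, so its rise was larger with shSYK_1.

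Soluble mediators and their receptors rose in part. Of 26 measured, 7 were called higher and 1 lower, the 1 being the shared cytokine receptor chain CSF2RB (-0.49). Among all genes 6.74% were called higher and 5.91% lower with the same sign. CCL2, which draws monocytes through CCR2, was at 406 and 572 with shSYK_1 and 339 and 398 with shSYK_2, against 141, 124 and 113 with shLuc (1.75 log2, SE 0.13, adjusted p = 1.09e-07). CCR1 rose by 0.86, the interleukin 1 receptor antagonist IL1RN by 0.77, CX3CR1 by 0.78, IL10RA by 0.62 and IFNGR1 by 0.47. CXCL8 (interleukin 8) was called at 1.38 log2 through shSYK_1 (2.48), and its change with shSYK_2 was 0.28 (adjusted p = 0.705).

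Genes of the oxidative burst and of granulocyte maturation rose in 7 of 20 measured cases, all 7 with each hairpin, and none fell. The shares of all genes called with the same sign were 6.74% higher and 5.91% lower, and 2.55% were higher with each hairpin. CYBB, the catalytic subunit of the phagocyte NADPH oxidase, was at 189 and 192 with shSYK_1 and 100 and 102 with shSYK_2, against 64.4, 66.3 and 55.9 with shLuc (1.16 log2, adjusted p = 7.38e-08). A second, dimmer CYBB probe set gave 0.37 (adjusted p = 0.0221), and its 0.14 with shSYK_2 was not called (adjusted p = 0.542), while another, near the floor on all arrays, gave 0.02. CHI3L1, a chitinase-like protein of macrophages and neutrophils, was at 226 and 241 with shSYK_1 and 238 and 262 with shSYK_2, against 70.0, 88.0 and 89.2 with shLuc (1.56 log2, adjusted p = 2e-09). A second CHI3L1 probe set gave 1.37 (adjusted p = 7.38e-10), and another, dim on all arrays, 0.05. C5AR1, the complement C5a receptor, rose by 1.26, the formyl peptide receptor FPR1 by 0.84 and the antimicrobial peptide gene CAMP by 1.45. Of 9 primary granule genes measured, which mark the promyelocyte stage, none was called higher for the mean of the hairpins. With shSYK_1 alone 1 was called higher and with shSYK_2 alone 1, against 1038 and 1012 of all 12165 genes. AZU1 and PRTN3 fell by 0.54 and 0.53 (1 call of these 2 without shSYK_2 replicate 1), and AZU1 changed by -0.02 with shSYK_2 and by -1.05 with shSYK_1.

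Lysosomal genes rose by small amounts but often. Among all genes tested 6.74% were called higher with the same sign and 2.55% with each hairpin. Of 27 lysosomal genes measured, 16 were called higher and none lower (median 0.29 log2), and 7 of the 16 passed with each hairpin. The proteases and hydrolases CTSD (0.67), NEU1 (0.64), CTSA (0.46) and HEXA (0.35), the sphingolipid activator PSAP (0.49), the cholesterol carriers NPC1 (0.58) and NPC2 (0.25) and the proton pump subunit ATP6V0D1 (0.73) were among them. PSAP was at 1142 and 1204 with shSYK_1 and 1511 and 1482 with shSYK_2, against 941, 966 and 929 with shLuc, with no overlap. The count of 16 was 10 without shLuc replicate 2 and 10 without shSYK_2 replicate 2. Genes of heme, NRF2 and iron handling rose in 7 of 17 cases and fell in none: HMOX1, which degrades heme, was at 89.5 and 88.5 with shSYK_1 and 55.2 and 63.7 with shSYK_2, against 23.7, 27.0 and 40.1 with shLuc (1.30 log2, adjusted p = 4.39e-06), and the quinone reductase NQO1 rose by 0.85.

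Interferon response genes were divided. For the lists here, the shares of all genes called with the same sign were 6.74% higher and 5.91% lower. Of 33 measured, 6 were called higher, among them the signalling factor IRF9 (0.86), OAS1 (0.90) and IFIT1 (0.87), and 4 lower, namely IFITM1 (-0.61), IFITM2 (-0.35), IFITM3 (-0.38) and USP18 (-0.73). The IFITM genes are close in sequence and may share probe signal. In antigen presentation 2 of 24 rose, a share near that of all genes, and the median was 0.03 log2. Only 11 of the 24 had the same sign with both hairpins, and 6 were called higher and 5 lower in shSYK_2 minus shSYK_1. Of all 12165 genes, 1443 were called higher and 1354 lower in that difference. The 2 rises in antigen presentation were HLA-DMA (0.70) and HLA-DRB1 (0.66), and HLA-DRB1 is close in sequence to other HLA-DRB genes. Leukocyte integrins and adhesion genes were higher in 8 of 21 and lower in 1 (ICAM2, -0.35). In the BCL2 family 4 of 17 rose, among them BCL2A1 and the pro-apoptotic BAK1 (0.36), and 3 fell: BCL2 (-0.32), PMAIP1 (-0.44) and BIK (-0.31). A second PMAIP1 probe set gave -0.22 and was not called by limma (adjusted p = 0.278), with opposite signs of the hairpins (-0.71 with shSYK_1 and 0.28 with shSYK_2). Among 23 myeloid transcription factors 3 rose (KLF4, KLF6 and MITF) and 6 fell, including CEBPA (-0.26), GFI1 (-0.27), RUNX1 (-0.21) and NFE2 (-0.45).

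In each list for which none is given as called in a direction by limma, the count in that direction at an unadjusted p under 0.05 was 0 as well.

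**Figure D3:**
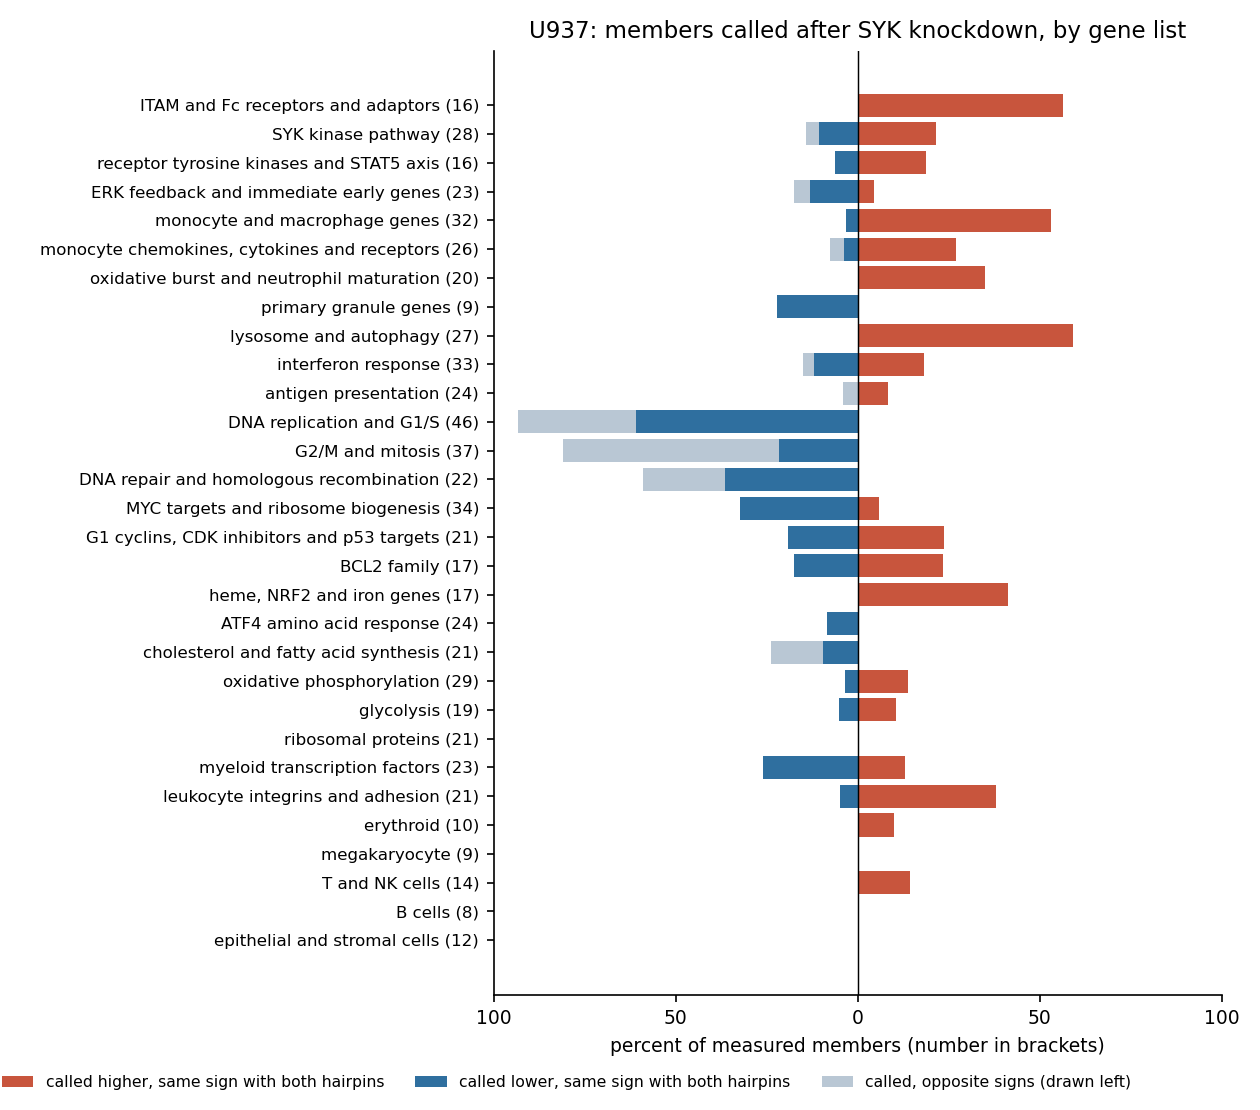
Percent of the measured members of each gene list (number in brackets) called in U937 with the same sign for both hairpins, higher to the right (red) and lower to the left (dark blue). Members called at opposite signs are added in light blue, drawn to the left whatever their direction. ITAM and Fc receptors, monocyte genes and lysosomal genes lie to the right, and DNA replication and DNA repair to the left. Mitosis is also drawn to the left, with 8 of 37 called lower with the same sign and 22 at opposite signs.

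DNA replication genes fell, and the size depended on the hairpin. Of 46 measured, 28 were called lower with the same sign for both hairpins and none higher, 10 of them with each hairpin alone. Over all genes 5.91% were called lower with the same sign and 1.44% with each hairpin. In the list 15 more were called with opposite signs, a class that held 254 genes over all (2.09%). The median change was -0.95 log2 with shSYK_2 and -0.06 with shSYK_1, and 39 of the 46 were called lower in shSYK_2 minus shSYK_1. Of all 12165 genes, 1354 were called lower in that difference. RFC5, a subunit of the clamp loader, fell by 1.30 with shSYK_2 and 1.16 with shSYK_1 (difference -0.14, adjusted p = 0.542), at 61.2 and 49.2 with shSYK_2 and 66.4 and 55.4 with shSYK_1, against 140, 128 and 139 with shLuc (-1.23 log2, SE 0.105, adjusted p = 6.48e-07). RPA2, of the single-strand binding complex, was at 174 and 170 with shSYK_2 and 278 and 269 with shSYK_1, against 491, 491 and 444 with shLuc (-1.13 log2, SE 0.0682, adjusted p = 9.99e-09). GINS1, of the replicative helicase, was at 233 and 217 with shSYK_2 and 541 and 553 with shSYK_1, against 678, 715 and 660 with shLuc (-0.96 log2, SE 0.0516, adjusted p = 3.01e-09). In RPA2 and GINS1 the shSYK_1 arrays lay between the shSYK_2 and the shLuc arrays. The licensing factor CDT1 (-0.67), thymidylate synthase TYMS (-0.66), the primase PRIM1 (-0.49) and the polymerase subunits POLD1 (-0.56), POLD2 (-0.26) and POLE (-0.31) were also called with each hairpin. DTL, which marks CDT1 for destruction, changed by -1.74 with shSYK_2 and by -0.28 with shSYK_1, where it was not called (adjusted p = 0.055).

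Mitotic genes did not form a concordant group. Of 37 measured, 8 were called lower with the same sign and 22 at opposite signs. The shares over all genes were 5.91% and 2.09%. The medians of the list were -0.77 log2 with shSYK_2 and 0.11 with shSYK_1. Only SMC4, a condensin subunit, passed with each hairpin, at 1497 and 1595 with shSYK_2 and 1476 and 1402 with shSYK_1, against 2077, 2191 and 1964 with shLuc (-0.48 log2, adjusted p = 3.08e-05). TOP2A (-0.63), PRC1 (-0.48), BIRC5 (-0.46) and CENPM (-0.49) were called for the mean, with changes between -0.15 and -0.04 with shSYK_1. BIRC5 had 2 other probe sets: 1 gave -0.93 with shSYK_2 and -0.12 with shSYK_1, while the other fell with both hairpins, by 0.94 with shSYK_2 and 1.00 with shSYK_1 (adjusted p = 1.84e-06), with a hairpin difference of 0.05 (adjusted p = 0.814). In DNA repair 8 of 22 were called lower with the same sign, 1 of them with each hairpin (MSH6, -0.34), and 5 at opposite signs.

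Genes of MYC and ribosome biogenesis changed little but more evenly. Of 34 measured, 11 were called lower and 2 higher, 5 of the 11 with each hairpin, with a median of -0.10 log2. MYC was at 3132 and 3203 with shSYK_1 and 4712 and 4975 with shSYK_2, against 5380, 5280 and 5317 with shLuc (-0.44 log2, SE 0.0577, adjusted p = 5.16e-05), not called with shSYK_2 (-0.14, adjusted p = 0.218) but called with shSYK_1 (-0.75). Ornithine decarboxylase ODC1 (-0.33) and the ribosome assembly factors UTP20 (-0.42), NIP7 (-0.36), MRTO4 (-0.27) and WDR12 (-0.22) passed with each. The count of 11 was 7 without shLuc replicate 2. None of 21 ribosomal protein genes was called for the mean by limma, and 0 passed at an unadjusted p under 0.05. Of G1 cyclins, CDK inhibitors and p53 targets, 5 of 21 were called higher and 4 lower, and none passed with each hairpin. The count of 5 was 1 without shLuc replicate 2 and 3 without shLuc replicate 3, shSYK_1 replicate 1, shSYK_1 replicate 2 or shSYK_2 replicate 2, and the count of 4 was 2 without shLuc replicate 1, shLuc replicate 3 or shSYK_1 replicate 2. CCND3 rose by 0.69 through shSYK_1 (1.21), and CDK6 fell by 0.53. Cholesterol synthesis had 2 of 21 called lower and the ATF4 amino acid response 2 of 24. Oxidative phosphorylation had 4 of 29 higher and 1 lower, and glycolysis 2 of 19 higher and 1 lower. The shares over all genes were 6.74% higher and 5.91% lower with the same sign, and 2.55% and 1.44% with each hairpin. The counts were not tested against them. Of the ATF4 list, 10 were called lower with shSYK_1 alone, and 5 higher and 1 lower with shSYK_2 alone. In shSYK_2 minus shSYK_1, 9 of its members were called higher. Over all 12165 genes these calls numbered 1018 lower with shSYK_1, 1012 higher and 964 lower with shSYK_2, and 1443 higher in the difference. Only SLC1A5, a glutamine transporter (-0.60), and PFKFB3, a glycolytic regulator (0.50), passed with each hairpin in these lists. The 4 rises in oxidative phosphorylation were 1 without shLuc replicate 3 and 2 without shLuc replicate 1, shLuc replicate 2, shSYK_1 replicate 2 or shSYK_2 replicate 2.

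**Figure D4:**
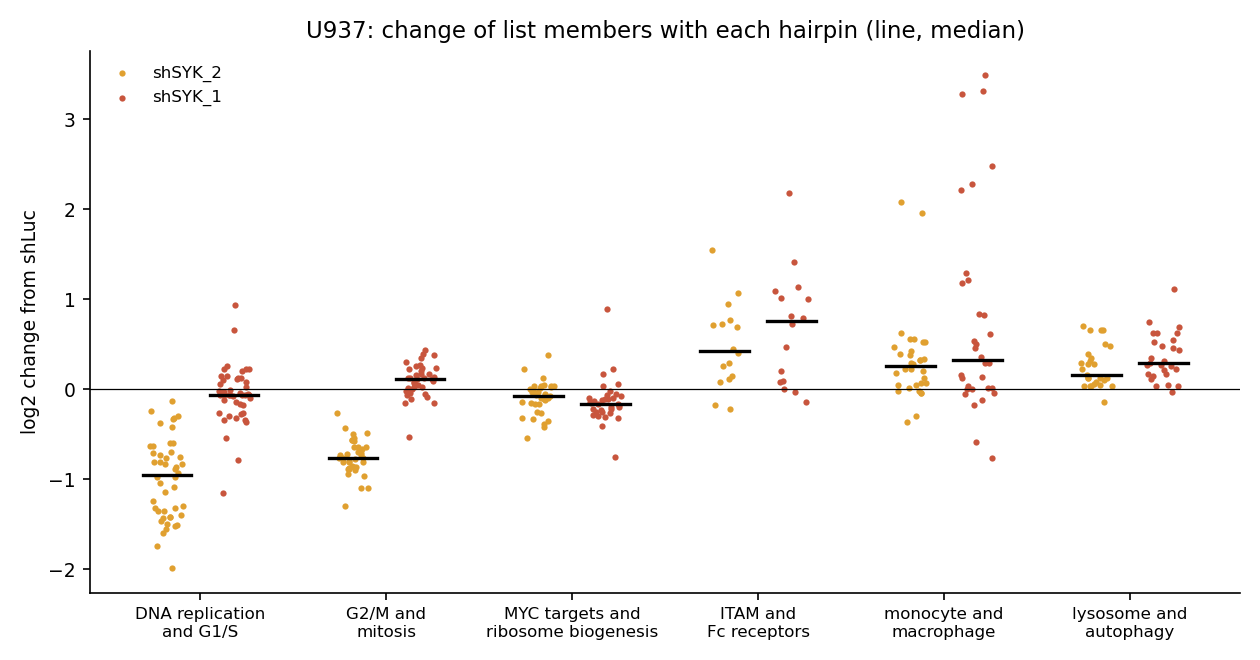
Log2 change from shLuc of each measured member of 6 lists in U937, with shSYK_2 (yellow) and shSYK_1 (red), and a line at the median. The replication list has medians of -0.95 with shSYK_2 and -0.06 with shSYK_1 and the mitosis list -0.77 and 0.11, while the ITAM, monocyte and lysosome lists are above 0 with both hairpins.

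Promoter windows of 300 bases from RefSeq (GRCh38.p14, around each start) were searched on both strands for the E2F letters TTTGGCGC or TTTCCCGC, since E2F factors drive many replication genes. The replication list was in the table for 40 genes with 49 windows, 18 of which (36.7%) held the letters. The share was 3.01% of the 14283 windows of genes tested and 2.27% of all 35116 windows. The mitosis list held them in 2 of 42 windows and the monocyte list in 0 of 37. The PU.1 letters GAGGAAGT, of a myeloid factor, were in 1 of the 37 monocyte windows (2.7%), against 2.69% of windows of genes tested and 2.59% of all windows. Within the replication list the 18 genes with E2F letters had a median of -0.90 log2 with shSYK_2 and -0.04 with shSYK_1, and the 22 genes without them -0.88 and -0.06, so the letters did not part the list by hairpin. A match is a description of these letters only. Windows of 2 genes with the letters and of RFC5, which fell by over 1 log2 with both hairpins and has none, are shown with the E2F letters in capitals.
DTL, chr1:212035498-212035797, plus strand: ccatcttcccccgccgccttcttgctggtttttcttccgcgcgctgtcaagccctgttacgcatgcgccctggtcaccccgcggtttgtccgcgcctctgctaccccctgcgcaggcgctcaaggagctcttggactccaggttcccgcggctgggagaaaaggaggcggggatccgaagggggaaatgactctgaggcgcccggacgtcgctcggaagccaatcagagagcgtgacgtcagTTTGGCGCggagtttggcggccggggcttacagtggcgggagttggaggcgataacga
GINS1, chr20:25407423-25407722, plus strand: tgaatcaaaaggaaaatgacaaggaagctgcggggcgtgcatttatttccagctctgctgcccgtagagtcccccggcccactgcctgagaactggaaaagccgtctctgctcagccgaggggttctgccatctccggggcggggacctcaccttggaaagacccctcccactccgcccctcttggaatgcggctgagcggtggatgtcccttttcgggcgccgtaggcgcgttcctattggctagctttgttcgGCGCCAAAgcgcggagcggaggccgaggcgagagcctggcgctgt
RFC5, chr12:118016453-118016752, plus strand: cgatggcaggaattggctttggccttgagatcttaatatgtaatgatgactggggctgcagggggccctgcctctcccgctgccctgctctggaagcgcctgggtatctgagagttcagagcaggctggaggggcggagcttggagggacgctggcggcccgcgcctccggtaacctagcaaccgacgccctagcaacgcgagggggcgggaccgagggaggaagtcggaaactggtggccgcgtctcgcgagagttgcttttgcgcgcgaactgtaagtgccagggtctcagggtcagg

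Called genes whose hairpins disagreed were not few. Of the 254 called at opposite signs, 167 were lower with shSYK_2 and higher with shSYK_1, and 87 the reverse, and 202 genes over all were called in opposite directions with each hairpin alone. CCNE2, a G1/S cyclin, was at 20.6 and 12.9 with shSYK_2 and 115 and 133 with shSYK_1, with shLuc between them at 63.2, 68.7 and 62.5. NFU1, an iron-sulfur cluster protein, was at 647 and 629 with shSYK_2 and 195 and 176 with shSYK_1, against 525, 481 and 506 with shLuc. TSGA10 was higher with shSYK_2 (1.34) and lower with shSYK_1 (-0.57), and SCML1 was lower with shSYK_2 (-0.38) and higher with shSYK_1 (1.37). RRM2, of ribonucleotide reductase, changed by -1.04 with shSYK_2 and 0.66 with shSYK_1, but its second probe set gave -0.97 and -0.48.

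MOLM-14 and HL-60 have their own shLuc arrays, so the U937 set can be compared with them. The lines share the same hairpins and 1 spread per gene in the fit, so their calls are not independent. In MOLM-14 1207 genes were called higher (9.92%) and 1154 lower (9.49%), and in HL-60 1382 higher (11.4%) and 1588 lower (13.1%). Of the 310 U937 rises, 180 (58.1% of them, and 14.9% of the MOLM-14 rises) were called higher in MOLM-14 and 7 lower, and 235 (75.8%, and 17% of the HL-60 rises) were called higher in HL-60 and 3 lower. Of the 175 U937 falls, 114 (65.1%, and 9.88% of the MOLM-14 falls) fell in MOLM-14 and 128 (73.1%, and 8.06% of the HL-60 falls) fell in HL-60. Without the HL-60 array of conflicting hairpin labels, 236 of the rises (of 1409 in HL-60) and 118 of the falls (of 1273) were called in HL-60. Calls in the other lines were for the mean of the hairpins and were not required to have the same sign with both. Rises shared by all 3 lines numbered 151 and falls 93, while 43 of the rises and 25 of the falls were called in neither other line. CD48, HMOX1, BCL2A1, GAL and GNB1 were among the shared ones, with CD48 at 2.04 log2 in U937, 2.29 in MOLM-14 and 1.13 in HL-60.

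The difference between the U937 change and the mean of the other 2 lines was called for 536 genes (4.41%). It was called for 312 genes without U937 shLuc replicate 3, 322 without shLuc replicate 1 and 345 without shSYK_2 replicate 2, and for 637 without the HL-60 array of conflicting labels. Among the strict U937 set, 85 of the 310 rises were called for it, 70 of them larger in U937, and 35 of the 175 falls, 34 of them larger in U937. The strict set was chosen by its U937 change, which is also a term of this difference. More calls than among all genes, and more of them larger in U937, therefore follow in part from that choice. MS4A4A changed by 2.93 log2 in U937, against -1.45 in MOLM-14 and -0.12 in HL-60 (difference 3.71, adjusted p = 4.17e-08). CD36 changed by 2.78 in U937, against 0.48 in MOLM-14 and 1.62 in HL-60 (difference 1.74, adjusted p = 1.46e-05). The hairpins went opposite ways for CD36 in MOLM-14, at -1.27 with shSYK_2 (adjusted p = 6.07e-05) and 2.23 with shSYK_1 (adjusted p = 6.44e-08), and gave 0.66 and 2.58 in HL-60. IGLL1 changed by -2.66 in U937, against -0.04 and -0.50 (difference -2.39, adjusted p = 0.000162), and CAB39L by -1.83, against 0.05 and -0.05 (difference -1.83, adjusted p = 6.6e-06). FCER1G was higher in U937 and HL-60 (1.06 and 1.17) and lower in MOLM-14 (-0.64), and CCR1 followed the same order (0.86, 1.13 and -0.65). DDB2, a p53 target in nucleotide excision repair, was lower in U937 (-0.42) and higher in MOLM-14 (0.41) and HL-60 (0.42). Its fall in U937 was carried by shSYK_2 (-0.74, against -0.10 with shSYK_1).

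**Figure D5:**
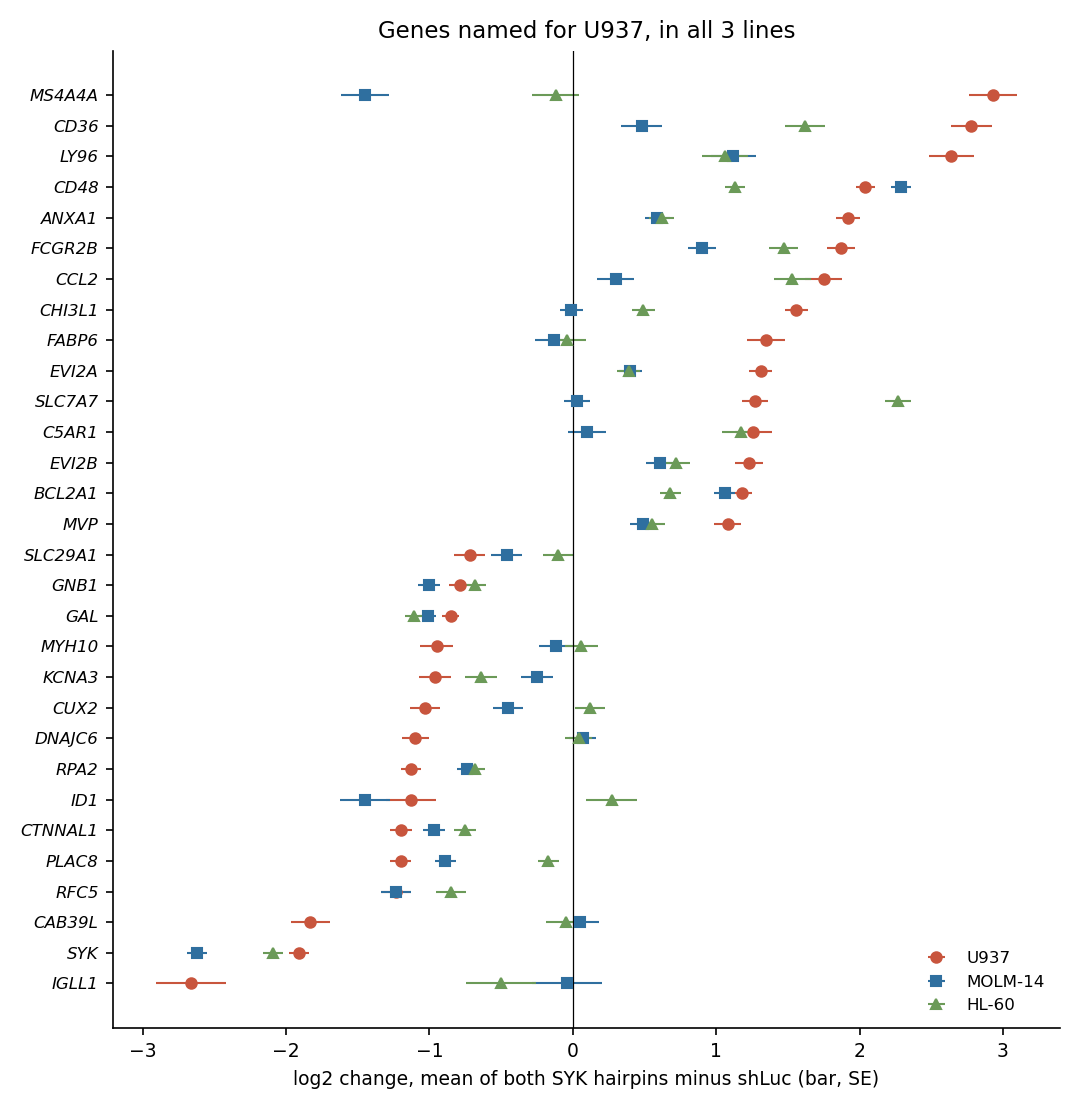
Log2 change (mean of both SYK hairpins minus shLuc, bar SE) in U937, MOLM-14 and HL-60 of the 15 genes named as rising and the 15 named as falling in U937. CD48, BCL2A1, RFC5, GNB1 and GAL moved the same way in all 3 lines, while MS4A4A, FABP6, IGLL1, CAB39L and DNAJC6 changed in U937 by over 1 log2 and by -0.12, -0.04, -0.50, -0.05 and 0.04 in HL-60.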

How the data were processed

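RNA of 21 arrays (3 lines, shSYK_1 and shSYK_2 in duplicate, shLuc in triplicate) was read on Affymetrix HT U133A arrays. The deposited values are intensities on a linear scale (3.23 to 13024.7), made by RMA per the submitters' processing notes, whose version is not given in the sources used here. Log2 was taken with no pseudocount and no filter on low values. Of 22277 probe sets, 62 controls, 568 naming several genes and 1923 naming no gene were dropped; symbols were updated by gene ID through a RefSeq table (GRCh38.p14) for 19707 and kept for 17. Where a gene had several probe sets (4505 of 12165 genes), the brightest on average was used. Median intensity of the U937 arrays was 20.0 to 20.6, and only 2 or 3 arrays a group limit the precision.

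A model of 9 group means was fitted with limma 3.58.1 (R 4.3.3) on all arrays (12 residual degrees of freedom), so lines share 1 spread per gene. One HL-60 array carries conflicting hairpin labels; it was placed by its title and treatment, and enters the U937 fits through that spread and the line comparison through the HL-60 mean. Arrays of a group differed by a SD of 0.164 to 0.192 log2, and none were duplicates. Replicate numbers did not pair U937 arrays (correlations of deviations -0.0518 to -0.0145). Fits on simulated data with 50 genes at each size recovered 10 at 0.25 log2, 43 at 0.5, 50 at 1 and 50 at 2, with 9 false calls. The simulated data held far fewer changed genes than the 1793 called for the U937 mean, which makes the adjusted p stricter there. The share recovered at small sizes therefore need not hold for these data, although small changes can be missed.

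Named genes were SYK, FLT3 and MYC; the 15 rises and 15 falls with the largest smaller-hairpin change among genes called for the mean and each hairpin; up to 4 members per list by p; the 8 highest and 8 lowest called line differences; and the 5 largest opposite changes. Other list members are named from their list. Members and the 30 lists (717 genes, 646 measured) were chosen with earlier results of these data known.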

Additional observations from a re-analysis of the deposited data

Results flagged for a closer look

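The values here were singled out because the fitted difference between the U937 change and the mean of the MOLM-14 and HL-60 changes passed an adjusted p of 0.05 in limma. Over all genes 536 passed. Each value is that difference in log2, positive where the U937 change lay above the mean of the other lines. SYK fell less in U937 (difference 0.45), which its second probe set did not show (0.05, adjusted p = 0.846).

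Differences of 0.8 or more were found for MS4A4A 3.71, TDO2 1.95, CD36 1.74, LY96 1.55, CXCL8 1.53, FABP6 1.44, S100A8 1.39, ANXA1 1.32, CHI3L1 1.32, EVI2A 0.92, CAMP 0.88, CCL2 0.83, FCER1G 0.80. The second CD36 probe set gave 1.84. In MOLM-14 the mean of the hairpins averages called changes of opposite sign for CD36 (-1.27 with shSYK_2 and 2.23 with shSYK_1), S100A8 (-1.69 and 1.87) and CHI3L1 (-0.73 and 0.72), so a mean near 0 there is not a small change with each hairpin. The difference between lines was not tested for each hairpin alone. Without 1 of several U937 arrays the CXCL8 difference lost its call, and the S100A8 difference was 0.41 (adjusted p = 0.0914) when a gene's probe sets were averaged. CAMP is an antimicrobial peptide gene and TDO2 a tryptophan-degrading enzyme, and TDO2 changed by 0.61 with shSYK_2 and 3.99 with shSYK_1.

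Smaller positive differences were found for FCGR2B 0.68, FCGR1A 0.68, IFIT1 0.64, CCR1 0.63, C5AR1 0.62, MITF 0.57, MVP 0.56, EVI2B 0.56, SCML1 0.48, TYROBP 0.48, ITGAM 0.46, NCAM1 0.45, CCND3 0.43, SLC7A11 0.37, CD48 0.33, PRKCB 0.32, and for the transferrin receptor TFRC 0.65. Negative differences among genes lower in U937 were found for IGLL1 -2.39, CAB39L -1.83, TNFSF14 -1.17, DNAJC6 -1.16, SLC16A10 -1.0, MYH10 -0.92, CUX2 -0.87, DDB2 -0.84, IFITM1 -0.69, PLAC8 -0.67, KCNA3 -0.52, SMC4 -0.46, DTL -0.45, IFITM2 -0.43, TIMELESS -0.43, RPA2 -0.42, CTNNAL1 -0.34, BLM -0.30, PRC1 -0.28. TNFSF14 changed by -0.37 in U937, against 0.04 in MOLM-14 (-0.73 with shSYK_2 and 0.81 with shSYK_1, both called) and 1.57 in HL-60. The SLC16A10 arrays overlapped between groups, and its difference lost its call without 1 of several arrays. S100A6 and ADA2 rose in U937 by 0.26 and 0.60 and rose more in the other lines (differences -0.94 and -0.94): S100A6 by 0.83 in MOLM-14 and 1.58 in HL-60, and ADA2 by 1.20 and 1.89.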

How the results depend on the processing

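No called change of a named gene reversed under any alternative run. The other probe sets of DUSP6 gave 0.31 (limma adjusted p = 0.0658) and 0.14 (adjusted p = 0.346) in U937, neither called. Leaving out 1 U937 array at a time gave 1107 to 1306 concordant called genes, 297 to 378 called with each hairpin, 1289 to 1974 with shSYK_1, 1091 to 1960 with shSYK_2, 1912 to 2717 for the hairpin difference and 312 to 430 for the line difference, and SYK at -1.92 to -1.89 log2 (shSYK_1 -1.71 to -1.66, shSYK_2 -2.14 to -2.12). A lone array of a group is then assumed to vary like the other groups. Requiring a change over 0.5 log2 (treat) left 72 concordant genes (80.6% of them higher, against 53.3%) and 23 with each hairpin. It left 134 genes with shSYK_1, 163 with shSYK_2, 297 for the hairpin difference and 18 for the line difference. Lower counts follow from its construction. The larger share of rises does not, as rises and falls are treated alike. In the main fit 105 of the 310 rises and 34 of the 175 falls were over 0.5 log2 with each hairpin. With replicate number as a block the counts were 762, 243, 1205, 1131 and 135 (concordant, each hairpin, shSYK_1, shSYK_2, line difference). The numbers did not pair the arrays. In that fit shLuc replicate 3 was alone in its block in each line, so it did not enter the changes. Some called changes were smaller there (BCL2L1 0.37, against 0.51). With log2(intensity + 16) the line difference was called for 887 genes; the cause was not tested. Concordant called genes numbered 1486 to 1964 with the U937 arrays alone, without the array of conflicting labels, with averaged probe sets, the added 16, the dimmest 40% left out, median centring, quantile normalization, a trended and robust prior, or array weights. Among genes called with each hairpin, 73 of 485 had a mean under 5 log2, where the array limits the fold. Counts of 5 or fewer in the primary granule, chemokine, antigen presentation, MYC, ATF4, cholesterol, glycolysis, erythroid, and T and NK cell lists also moved by over 1.5 times when 1 array was left out.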
